A study of Mus musculus with 9 samples.

Results

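The glandular kallikreins are a family of secreted serine proteases, represented here by 10 genes chosen by name: Klk1, Klk1b1, Klk1b3, Klk1b4, Klk1b5, Klk1b8, Klk1b9, Klk1b16, Klk1b22 and Klk1b26. They are 10 of the 54532 genes in the count table, and all 10 had enough counts to be tested. Their RNA was measured by bulk RNA sequencing of the submandibular salivary gland of wild-type (WT) mice, all of which had received 10 Gy of radiation. There were 9 libraries, 3 each at 30, 60 and 90 days after irradiation, and the samples of a day are called by the numbers in their labels. Non-irradiated glands were not analysed here, so all comparisons are among irradiated glands, in which the effect of time after the dose cannot be told apart from the age of the mice. Strain, age and sex are not in the labels. Nothing in them says that samples of a day came from separate mice, so p-values measure the spread between these samples, which may be technical.

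Klk1 is the true tissue kallikrein, which cuts kininogen to release kinins, peptides that widen blood vessels. In the mouse the gene has been copied many times, and the copies, named Klk1b, lie beside it in a cluster on chromosome 7. Several Klk1b proteases process or bind growth factors and renin, and the submandibular gland makes them in the granular convoluted ducts together with epidermal growth factor (EGF) and renin. These ducts are known to respond to androgens and thyroid hormone and are larger in male than in female mice, and Klk1 itself is also made by striated ducts. The 4 Y-linked genes examined (Kdm5d, Uty, Ddx3y and Eif2s3y) had 0 counts in all 9 libraries, whereas Xist had 3996 to 9239 counts per library.

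The family members resemble each other so closely that their sequences set how far their counts can be separated. On the coding sequences of GENCODE release M21, Klk1 was 81.4% identical to its most distant relative here, Klk1b16, and 95.2% identical to its nearest, Klk1b5. The 36 pairs of Klk1b genes were 81.2% to 93.1% identical, with a median of 86.3%. The stretch of 50 coding bases below surrounds the codon of the catalytic serine and is shown to let a reader see how few bases part some members. Capitals mark the bases that differ from Klk1, and positions are counted from 1 at the first base of the start codon, 615 to 664 in each but Klk1b4 (600 to 649) and Klk1b22 (609 to 658).
Klk1: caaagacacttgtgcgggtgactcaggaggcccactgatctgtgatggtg
Klk1b5: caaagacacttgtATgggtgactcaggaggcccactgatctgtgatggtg
Klk1b26: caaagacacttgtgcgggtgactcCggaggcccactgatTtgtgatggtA
Klk1b1: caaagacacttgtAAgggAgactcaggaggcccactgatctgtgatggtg
Klk1b22: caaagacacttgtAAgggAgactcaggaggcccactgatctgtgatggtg
Klk1b4: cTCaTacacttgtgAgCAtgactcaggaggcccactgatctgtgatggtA
Klk1b8: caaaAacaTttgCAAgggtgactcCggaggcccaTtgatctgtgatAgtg

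Klk1b5 differed from Klk1 at 2 of these 50 bases and Klk1b8 at 8, while Klk1b1 and Klk1b22 were the same as each other. Over whole transcripts, 71.6% of the 50-base words of Klk1 were found in no other of the 24 Klk1 and Klk1b genes of the annotation, the lowest share of the 10 members. Klk1b16 had the highest share, 89.9%. With words of 100 bases the shares were 93.9% to 100% for all 10. Within the coding sequence alone, the 50-base share was lowest for Klk1 (66.35%), Klk1b5 (70.0%) and Klk1b26 (72.7%), and highest for Klk1b22 (88.1%). The longest stretch that Klk1 shared with another gene was 145 bases, with Klk1b5. How reads that fit several members were counted is not given in the sources used here, so each member's level and change may hold some counts of its relatives.

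**Figure D1:**
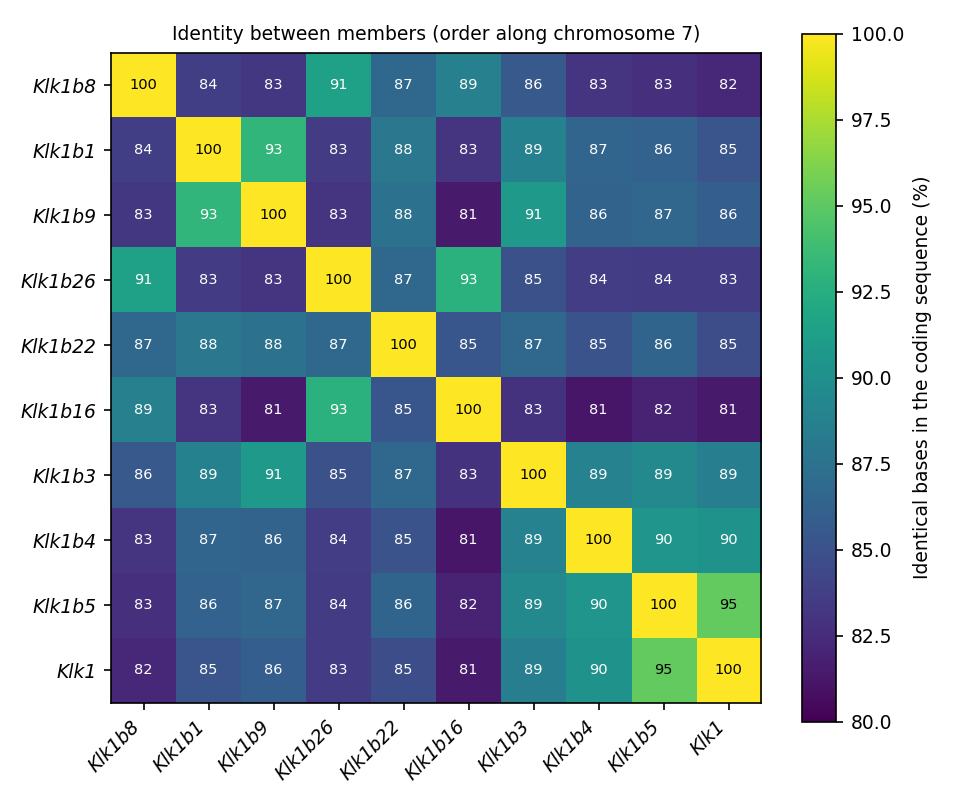
Percent of identical bases between the coding sequences of each pair of the 10 members, ordered along chromosome 7 on both axes, with colour and number giving the same value. Klk1 and Klk1b5 form the closest pair, at 95.2%, and Klk1b26, Klk1b16 and Klk1b8 form a group of near relatives.

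The DNA just before the RefSeq transcription start was also alike among the Klk1b genes, and is shown because their RNA followed similar courses over the days. In the RefSeq promoter windows (250 bases before to 50 after each start, build GRCm38.p6), all 9 Klk1b members held the letters TTTAAA between 48 and 13 bases before the start. These letters read the same on both strands, and the word was the only one searched. Of 32851 RefSeq windows, 13.2% held it anywhere and 2.79% in the last 60 bases before the start. No match was found before the start in the Klk1 window, which says only that these letters are not there. The 5 stretches that follow are from the plus strand, 56 bases each, with TTTAAA in capitals. They belong to the most abundant Klk1b gene and to those with the largest and the smallest fold at 60 days. The others are Klk1b3, whose match lies nearest to the start, and Klk1b16, known as gamma-renin. For Klk1b26, Klk1b5 and Klk1b16 the GENCODE gene begins upstream of the RefSeq start, at 44012168, 44215945 and 44136767. The stretches of these genes thus lie before the RefSeq start but inside the GENCODE gene.
Klk1b26, chr7:44012602-44012657: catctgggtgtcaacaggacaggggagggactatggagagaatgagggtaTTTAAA
Klk1b8, chr7:43950572-43950627: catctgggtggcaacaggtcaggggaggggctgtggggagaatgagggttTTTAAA
Klk1b5, chr7:44216382-44216437: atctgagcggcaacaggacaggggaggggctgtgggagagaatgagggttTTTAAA
Klk1b3, chr7:44198128-44198183: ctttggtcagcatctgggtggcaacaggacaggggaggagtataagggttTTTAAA
Klk1b16, chr7:44137201-44137256: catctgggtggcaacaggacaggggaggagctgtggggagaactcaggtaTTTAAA

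Over such 56-base stretches, the 36 pairs of Klk1b members shared 62.5% to 96.4% of bases, with a median of 89.2%. The match of letters is a description and shows no bound factor. The genes are copies of each other, so the 9 matches are not independent, and a link to the RNA courses was not tested.

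Depth ran from 16541396 to 26065856 counts per library and was lowest at 30 days. The secretory gene Mucl2 alone took 31.4% to 42.8% of the counts. Levels are given below as CPM (each count divided by the size of its library), after scaling by edgeR's TMM factors. The floor of 3 counts corresponds to 0.101 to 0.213 CPM on this scale and covers counting error only. The member with the fewest counts, Klk1b1 in 30-day sample 1, had 625.

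Klk1 was the most abundant member on every day and its level did not pass the test in any comparison. The gene (chr7:44225360-44229618, plus strand) stood at 16870, 20892 and 19841 CPM in the samples of 30 days, at 22593, 23565 and 21180 CPM at 60 days, and at 17973, 20694 and 20163 CPM at 90 days. All 3 samples of 60 days lay above all samples of the other days. Its change from 30 to 60 days was 0.23 on the log2 scale (standard error, SE, 0.17, 95% interval -0.14 to 0.59, adjusted p = 0.655, edgeR). From 60 to 90 days it was -0.19 (interval -0.56 to 0.17, adjusted p = 0.746), and from 30 to 90 days 0.03 (interval -0.33 to 0.39, adjusted p = 0.956). The last value turned to -0.05 without 30-day sample 1 and to -0.01 without 90-day sample 2. On the annotation, Klk1 overlaps the pseudogene Gm10109 on the opposite strand, whose counts over the 9 libraries summed to 3701, few beside those of Klk1.

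All 9 Klk1b members had their 3 lowest values at 30 days. From 30 to 60 days 8 of them rose with an adjusted p under 0.05, which is 8 of all 10 members, where 1.14% of the 15224 genes tested passed as higher and 1.56% in either direction. The median log2 fold change of the 10 members was 1.73, against -0.00 for all genes tested. All 10 had 60-day values above all their 30-day values, as had 8.65% of genes tested. From 30 to 90 days the same 8 Klk1b genes rose, where 1.81% of genes passed as higher, with a median of 1.84 for the 10 members against 0.01 for all genes. The 9 Klk1b genes did not overlap between those days, as was so for 11.4% of genes in the higher direction. In the test of any difference among the days 8 of 10 passed, against 3.29% of genes. The count for 60 against 30 days was 5 under library-size scaling alone (Klk1b1, Klk1b5, Klk1b16, Klk1b22 and Klk1b26) and 3 without 60-day sample 1 (Klk1b5, Klk1b16 and Klk1b26), with medians of 1.73 and 1.68, where 0.519% and 0.946% of genes passed as higher.

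**Figure D2:**
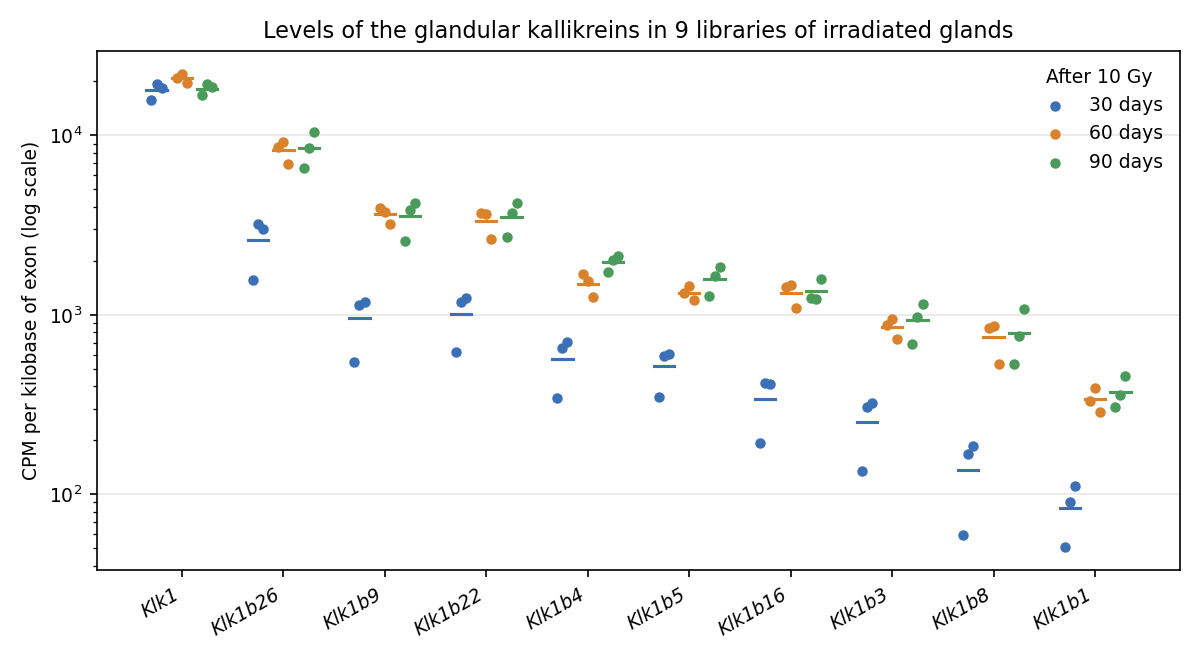
CPM per kilobase of exon (vertical axis, log scale) of the 10 members in the 9 libraries, with a point per library, colours for the day and a bar at the mean of the 3 samples. Klk1 stays near the same height while each Klk1b gene has its 3 samples of 30 days below all samples of the later days.

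Klk1b3 and Klk1b4 lie side by side near Klk1, and the protein of Klk1b4 is known to lack protease activity. Klk1b3 (chr7:44198191-44202352) was at 119, 273 and 285 CPM at 30 days, at 781, 841 and 655 CPM at 60 days and at 609, 868 and 1018 CPM at 90 days. Its samples of 30 days lay below all later ones, and those of 60 and 90 days overlapped. The fold from 30 to 60 days was 3.36 (log2 1.75, SE 0.33, adjusted p = 0.0486, edgeR), a call that was lost in 11 of 17 alternative fits, with adjusted p up to 0.215. The rise to 90 days (log2 1.88, SE 0.34, adjusted p = 0.0223) was lost in 6 of 17. Among these fits, leaving out 30-day sample 2 or 3, any sample of 60 days, or 90-day sample 2 or 3 ended the first call, and leaving out 60-day sample 1 or 3 or 90-day sample 2 or 3 ended the second.

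Klk1b4 (chr7:44207435-44211754) rose from 287, 547 and 594 CPM at 30 days to 1419, 1286 and 1052 CPM at 60 days, and stood at 1444, 1703 and 1787 CPM at 90 days. It was the only member whose 90-day samples all lay above its 60-day samples, where 8.3% of genes tested did so. That step was 0.39 on the log2 scale (interval -0.09 to 0.87, adjusted p = 0.563) and did not pass. The rise from 30 to 60 days was 1.40 (SE 0.23, adjusted p = 0.00739), which lost its call without 60-day sample 1 and under library-size scaling, with adjusted p up to 0.0852.

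Klk1b22 codes for an EGF-binding protein, and Klk1b9 for another EGF-binding protein. Their values were close to each other on each day. Klk1b22 (chr7:44112673-44116922) was at 529, 1004 and 1059 CPM at 30 days, 3142, 3114 and 2257 CPM at 60 days and 2329, 3148 and 3573 CPM at 90 days. Klk1b9 (chr7:43976061-43980376) was at 477, 989 and 1031 CPM, then 3418, 3238 and 2806 CPM, then 2250.3, 3317 and 3671 CPM. In both, 30-day sample 1 was the lowest of all 9 libraries, and 60 and 90 days overlapped. From 30 to 60 days Klk1b22 rose 3.28-fold (log2 1.72, SE 0.25, adjusted p = 0.00394) and Klk1b9 3.79-fold (log2 1.92, SE 0.27, adjusted p = 0.00396). Without 60-day sample 1 neither call remained, with adjusted p of 0.0506 and 0.0884, and for Klk1b9 library-size scaling also ended it.

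The members linked to renin are Klk1b26, a prorenin-converting enzyme, and Klk1b16, known as gamma-renin. Klk1b26 (chr7:44012168-44016968) was the most abundant Klk1b gene, with 2173, 4462 and 4158 CPM at 30 days, 11867, 12777 and 9648 CPM at 60 days and 9168, 11842 and 14399 CPM at 90 days. Even its lowest later sample, at 9168 CPM, was above its highest 30-day sample. The rise from 30 to 60 days was 3.18-fold (log2 1.67, SE 0.25, adjusted p = 0.00212) and passed in all 17 alternative fits. Klk1b16 (chr7:44136767-44141610) was at 267, 576 and 573 CPM, then 1977, 2026 and 1504 CPM, then 1723, 1709 and 2205 CPM. It rose 3.89-fold to 60 days (log2 1.96, SE 0.26, adjusted p = 0.0038), also in all 17 fits.

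For the other 3 members no role is given here. Klk1b5 (chr7:44215945-44220703), the nearest relative of Klk1, was at 484, 824 and 841 CPM at 30 days, 1842, 2025 and 1676 CPM at 60 days and 1773, 2278 and 2571 CPM at 90 days. Its rise to 60 days was the smallest among the Klk1b members and the one with the lowest adjusted p, 2.58-fold (log2 1.37, SE 0.19, adjusted p = 0.00139), and passed in all 17 fits. Klk1b1 (chr7:43966751-43971318) was the least abundant member, at 44.3, 78.9 and 96.0 CPM, then 288, 340.5 and 248 CPM, then 265, 311 and 396 CPM. It rose 3.99-fold to 60 days (log2 2.00, SE 0.28, adjusted p = 0.0102), a call lost without 60-day sample 1 (adjusted p = 0.0712).

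Klk1b8 (chr7:43950664-43954941) had the largest fold of the family and missed the threshold. Its samples stood at 50.8, 143 and 160 CPM at 30 days, at 722, 745 and 459 CPM at 60 days, and at 454, 651 and 927 CPM at 90 days. The days 30 and 60 did not overlap, but the samples within each day were spread widely, with a coefficient of variation of 49.7% at 30 days. The log2 fold change to 60 days was 2.44 (SE 0.50, interval 1.23 to 3.65, adjusted p = 0.102), and to 90 days 2.52 (SE 0.50, adjusted p = 0.0535). DESeq2 and the fit without 30-day sample 1 placed both past the threshold. Klk1b8, Klk1b1 and Klk1b9 overlap the antisense gene Gm44756, which had 164 counts over the 9 libraries, and whether the counting used strand is not given in the sources used here.

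**Figure D3:**
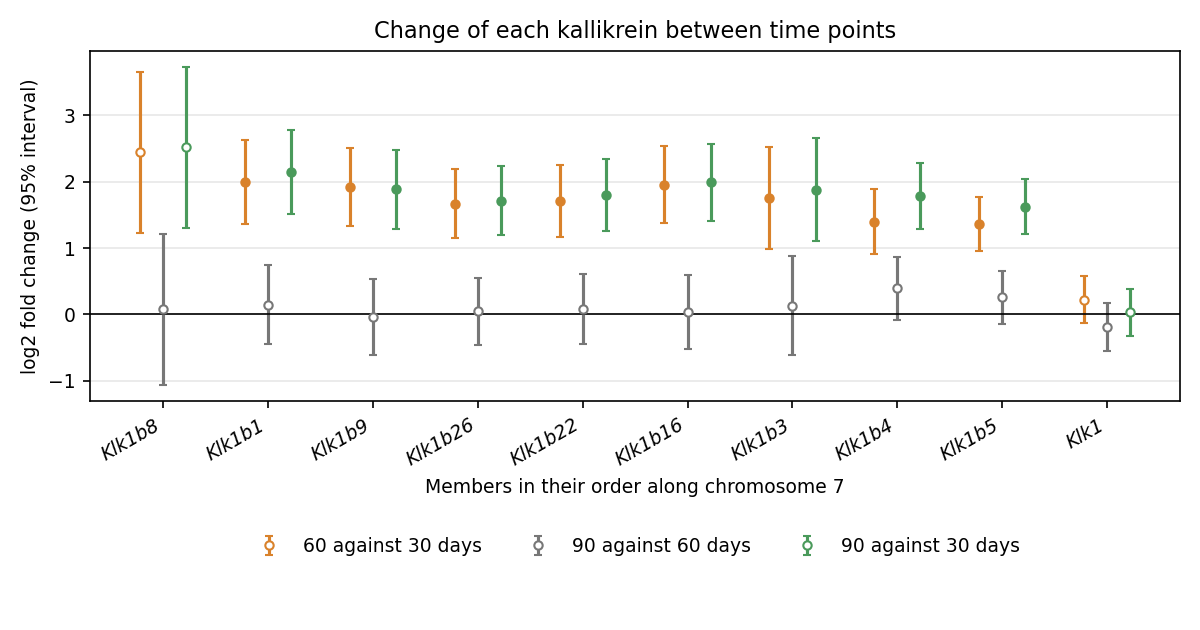
Log2 fold change of each member (vertical axis, with 95% interval) in the 3 comparisons, in the order of the genes along chromosome 7, with filled points for an adjusted p under 0.05 in edgeR's quasi-likelihood test. The Klk1b genes lie between 1.37 and 2.44 for 60 against 30 days, Klk1 lies at 0.23, and no point is filled for 90 against 60 days.

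From 30 to 90 days the rises were close to those at 60 days, from 1.62 on the log2 scale for Klk1b5 (SE 0.19, adjusted p = 0.000255) to 2.14 for Klk1b1 (SE 0.28, adjusted p = 0.00439) among the 8 called. Of these, Klk1b1, Klk1b4, Klk1b5, Klk1b9, Klk1b16, Klk1b22 and Klk1b26 passed in all 17 alternative fits. Klk1b26 stood at 1.71 (adjusted p = 0.001), Klk1b4 at 1.79 (adjusted p = 0.00102), Klk1b22 at 1.80 (adjusted p = 0.0019), Klk1b9 at 1.89 (adjusted p = 0.0028) and Klk1b16 at 1.99 (adjusted p = 0.00202).

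Between 60 and 90 days no member passed the test, where 0.256% of genes did. At an unadjusted p under 0.05 the count was also 0, against 10.8% of genes, and DESeq2 and limma-voom called 0 as well. The log2 fold changes ran from -0.19 for Klk1 to 0.39 for Klk1b4, with a median of 0.08. The intervals leave room for changes of some size, and were widest for Klk1b8 (0.08, interval -1.06 to 1.22). For Klk1, all samples of 90 days were lower than those of 60 days, as for 7.64% of genes tested.

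The members nearest to Klk1 in place and sequence had the smallest changes of the 9 Klk1b members from 30 to 60 days. Klk1b4 and Klk1b5 lie next to Klk1 and are 90.3% and 95.2% identical to it, the highest of the 9, and their log2 changes from 30 to 60 days, 1.40 and 1.37, were the smallest of the 9. At the other end of the cluster Klk1b8, 82.3% identical to Klk1, had the largest. The order did not follow identity throughout, since Klk1b3 (88.6% identical) changed by 1.75 and Klk1b26 (83.5%) by 1.67. Of the tested Klk1b genes outside the members, the lowest change over these days was 0.79. At 90 against 30 days Klk1b26, at 1.71, changed less than Klk1b4, at 1.79. Whether reads shared with Klk1 had a part in this was not tested.

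The samples of a day differed in the same way for nearly all members. In 30-day sample 1 all 10 members were at their lowest of that day, the Klk1b genes at 33.6% (Klk1b8) to 58.1% (Klk1b5) of the mean of the other samples and Klk1 at 82.8%. At 60 days sample 3 was lowest for 10 of 10 members, and at 90 days sample 1 for 9 and sample 3 highest for 9. In 30-day sample 1 the acinar markers summed to 647130 CPM, against 474600 and 457030 CPM in the other samples of that day. Most of each sum was Mucl2 (519020, against 379070 and 385080 CPM), which took 42.8% of the counts of 30-day sample 1. The part of this in the low kallikrein values was not tested. Without that library the median log2 change of the members from 30 to 60 days was 1.45 and 9 of 10 passed, Klk1b8 being the addition, where 0.552% of genes passed as higher.

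The order of the members was nearly fixed while their levels changed several-fold. Per kilobase of exon, Klk1 came first on each day, with 17828 ± 1937, 20841 ± 1113 and 18208 ± 1338 CPM per kilobase (SD, n = 3) at 30, 60 and 90 days. Klk1b26 followed with 2596 ± 897, 8247 ± 1161 and 8516 ± 1887, overlapping neither Klk1 nor the next gene on any day. The third and the fourth place belonged to Klk1b9 and Klk1b22, whose values overlapped on every day. Klk1b22 was the higher in 3 of 3 libraries at 30 days, and Klk1b9 in 3 of 3 at 60 days and 2 of 3 at 90 days. Klk1b4, Klk1b5 and Klk1b16 came next and overlapped each other as neighbours on every day. At 30 days every pair of neighbours below Klk1b26 overlapped. Then came Klk1b3, Klk1b8 and, last in all 9 libraries, Klk1b1 with 84.3 ± 30.4, 337 ± 53.4 and 373 ± 76.5 CPM per kilobase. Without division by length, Klk1b5 took the fifth place on each day, and Klk1b16 came before Klk1b4 at 60 and 90 days. The exon lengths were 1391, 1387 and 1386 bases for Klk1b5, Klk1b16 and Klk1b26, and 839 to 889 bases for the other Klk1b members. The order of Klk1b4, Klk1b5 and Klk1b16 thus depends on the length used. These lengths are from GENCODE, in which Klk1b5, Klk1b16 and Klk1b26 begin upstream of their RefSeq starts.

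The family as a whole took a larger share of the counts at the later days than at 30 days. The 10 members held 1.755%, 2.92% and 2.92% of all counts in the 30-day libraries, 4.47%, 4.45% and 4.58% at 60 days, and 4.32%, 5.51% and 4.95% at 90 days. The 9 Klk1b genes alone held 0.365%, 0.871% and 0.898%, then 2.37%, 2.35% and 2.24%, then 2.28%, 3.06% and 2.98%. No 30-day library reached the lowest later one in either sum.

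Within the family, the balance moved from Klk1 to its copies. Klk1 made up 79.2%, 70.1% and 69.3% of the members' counts at 30 days, 47.0%, 47.2% and 51.0% at 60 days, and 47.3%, 44.5% and 39.8% at 90 days. Klk1b26 went from 13.2% ± 2.64 to 24.5% ± 1.17 and 26.0% ± 2.18 (SD, n = 3). These shares do not depend on how the libraries are scaled. Set against Klk1 in the same library, each of the 9 Klk1b genes was higher in all samples of 60 days than in any of 30 days, by 1.18 (Klk1b5) to 2.35 (Klk1b8) on the log2 scale. Of all genes tested other than Klk1, 2.38% were higher without overlap when set against Klk1 in the same way. The exact two-sided permutation p was 0.1 for each, the smallest that 3 samples against 3 allow. From 60 to 90 days this ratio was again higher without overlap for Klk1b1, Klk1b4 and Klk1b5 (by 0.34, 0.59 and 0.44, exact permutation p = 0.1 each), and overlapped for the other 6. Between these days that was so for 21.2% of genes, and Klk1 itself had all its 90-day values below those of 60 days.

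Among the Klk1b genes themselves the share of 6 of the 9 did not overlap between 30 and 60 days, with Klk1b1, Klk1b8, Klk1b9 and Klk1b16 higher and Klk1b4 and Klk1b5 lower. How many of all genes would do so against the same sum was not worked out for any pair of days. Shares of a sum also depend on each other. Klk1b26 held 48.8% ± 1.45, 47.5% ± 0.896 and 46.3% ± 0.758 of the Klk1b counts at 30, 60 and 90 days, Klk1b22 held 11.8% on each day, and Klk1b3 also overlapped. Klk1b5 went from 9.92% ± 0.882 to 7.72% ± 0.511 and 8.70% ± 0.246, and Klk1b8 from 1.52% ± 0.342 to 2.64% ± 0.330 and 2.61% ± 0.390. Klk1b9 went from 11.2% ± 0.480 to 13.2% ± 0.807 and Klk1b16 from 6.34% ± 0.268 to 7.61% ± 0.187, with all 3 samples of the later day above those of 30 days, while Klk1b4 went from 6.46% ± 0.300 to 5.21% ± 0.351 at 60 days and 6.55% ± 0.684 at 90 days. From 60 to 90 days the shares of Klk1b4 and Klk1b5 were higher without overlap and those of the other 7 overlapped.

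**Figure D4:**
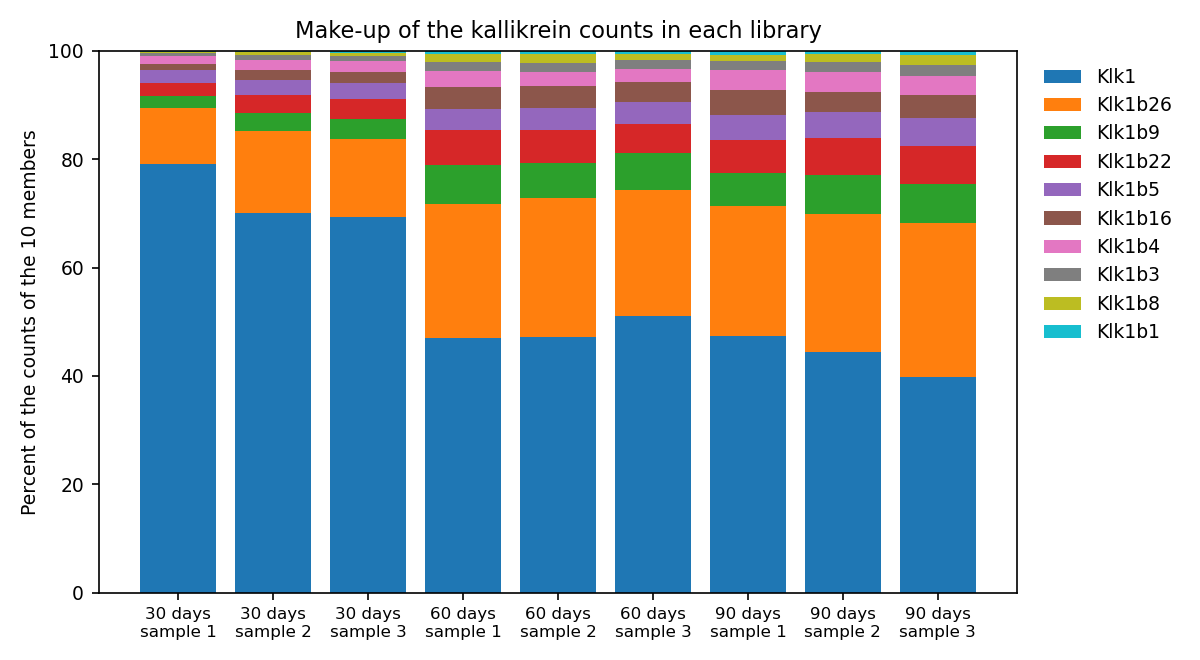
Share of each member in the summed counts of the 10 members (stacked bars, percent) in each of the 9 libraries. Klk1 fills 69.3% to 79.2% of the bar at 30 days and 39.8% to 51.0% later, and Klk1b26 is the second largest part throughout.

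Other genes of the Klk1b cluster were also higher at the later days. The table held 14 further Klk1b genes and pseudogenes, of which 9 could be tested, all with higher values at 60 than at 30 days (49.6% of all genes had a change above 0). Of these, 4 rose with an adjusted p under 0.05: Klk1b11 (log2 1.48, adjusted p = 0.0248), Klk1b21 (1.93, adjusted p = 0.0211) and the pseudogenes Klk1b7-ps (1.66, adjusted p = 0.00166) and Klk1b14-ps (1.83, adjusted p = 0.00272). Their median was 1.66. At 90 days Klk1b24 was the fifth (1.80 against 30 days, adjusted p = 0.0405). The pseudogenes were low, with at most 6.81 CPM for Klk1b7-ps and 6.74 CPM for Klk1b14-ps, and they share sequence with the members. The calls for Klk1b11, Klk1b21 and Klk1b24 were lost in 6, 4 and 9 of 17 fits. Of 12 kallikrein-related peptidase genes outside this cluster, Klk4 to Klk15, Klk8 alone could be tested and did not pass.

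Of 5 genes for growth factors and other proteins that are made in the same ducts or act with the kallikreins, 3 rose from 30 to 60 days. Egf stood at 811, 1465 and 1698 CPM at 30 days and at 5721, 6815 and 4941 CPM at 60 days (log2 2.14, adjusted p = 0.00129, edgeR). Crisp3, a cysteine-rich secretory protein, rose by 1.78 (adjusted p = 0.00298), a call lost in 1 of 17 fits, that with library-size scaling. Ren1, which codes for renin, had the largest fold, from 1.70, 3.63 and 4.56 CPM to 42.5, 41.7 and 20.5 CPM (3.38, adjusted p = 0.0163, lost in 4 of 17 fits). At 90 days Ren1 was at 14.3, 14.1 and 24.1 CPM, and the step from 60 days, -1.0, did not pass (adjusted p = 0.417). At 90 against 30 days 4 of the 5 passed, Egf (2.09, adjusted p = 0.00077) and Crisp3 (1.89, adjusted p = 0.00132) in all 17 fits. Crisp1 (2.91, adjusted p = 0.0197) lost its call in 4 of 17 fits and Ren1 (2.37, adjusted p = 0.0358) in 8 of 17. The fifth, Tgfa, was at 0.03 and -0.04 for 60 and 90 against 30 days.

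**Figure D5:**
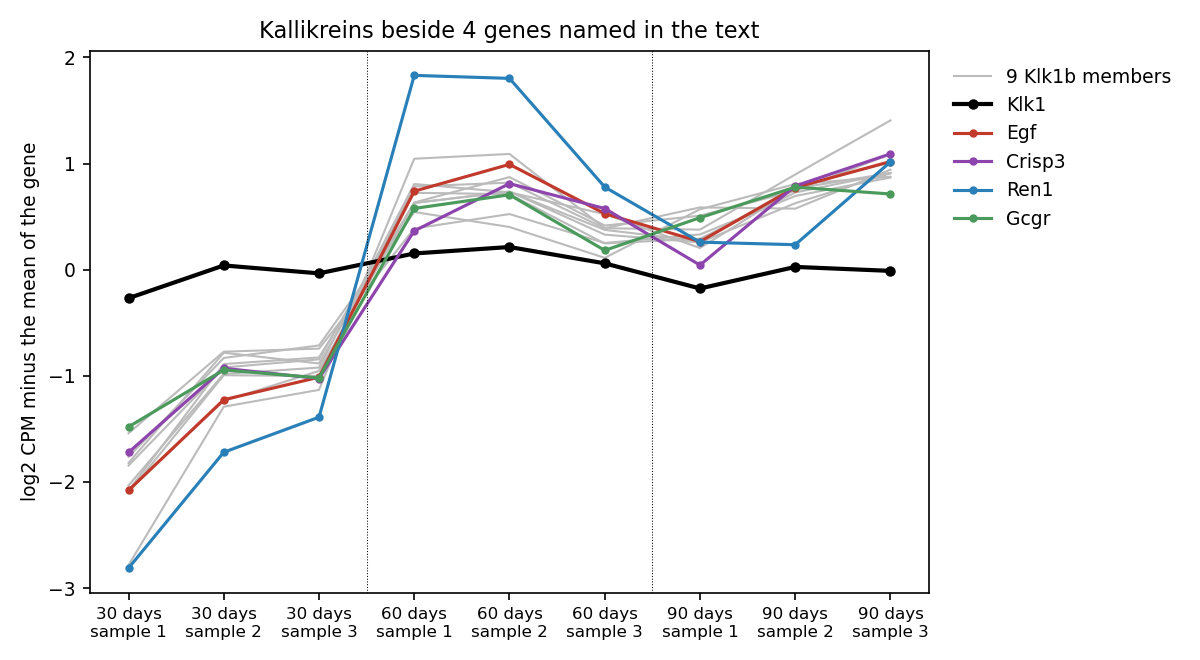
Log2 CPM minus the mean of the gene (vertical axis) in the 9 libraries, for the 9 Klk1b members (grey), Klk1 (black) and 4 other genes. Lines only join the values of a gene and mark no order of samples. Egf, Crisp3, Gcgr and the Klk1b genes other than Klk1b8 run close together, and Klk1b8 spans a wider range than the other Klk1b genes. Ren1 spans the widest range of the 4 added genes, and Klk1 stays near 0.

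In the kinin system, on which Klk1 acts, 1 gene rose from 30 to 60 days. Of 19 listed genes 9 could be tested, with a median of -0.13 for 60 against 30 days. The kininogen genes Kng1 and Kng2, which code for the substrate of Klk1, had 0 counts in every library. The kinin receptors Bdkrb1 and Bdkrb2 had at most 9 and 22 counts in a library and were not tested. Mme, which codes for the kinin-degrading enzyme neprilysin, rose by 0.49 (adjusted p = 0.0440, edgeR), a call lost in 11 of 17 fits. Agt, the precursor of angiotensin and substrate of renin, fell by 0.77 from 30 to 90 days (adjusted p = 0.00162) and passed in all 17 fits.

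Receptors that regulate these ducts were also examined. Of 7 tested, the adrenergic receptor gene Adra1a rose by 0.65 (adjusted p = 0.00557) and Adrb1 fell by 0.97 (adjusted p = 0.00594) from 30 to 60 days. The first call was lost without 60-day sample 2 (adjusted p up to 0.0739) or under library-size scaling, and the second without 60-day sample 2 (adjusted p = 0.0523). At 90 against 30 days Adrb1 was the only receptor of the list to pass (-0.67, adjusted p = 0.0304, lost in 6 of 17 fits).

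In bulk tissue, more cells of a type and more RNA per cell cannot be told apart, so the levels of other cell types' markers stand beside these rises. The 4 granular duct markers other than kallikreins (Egf, Ren1, Crisp1 and Crisp3) summed to 2373 to 4233 CPM at 30 days, 12399 to 15892 CPM at 60 days and 9441 to 17949 CPM at 90 days, without overlap between 30 days and the later days. The 11 markers of striated and excretory ducts summed to 897 to 930.5 CPM, 866 to 1023 CPM and 962 to 1008 CPM, and 1 of 10 tested rose from 30 to 60 days, the sodium channel gene Scnn1b (0.51, adjusted p = 0.0288, lost in 6 of 17 fits), which was also higher at 90 against 30 days (0.54, adjusted p = 0.0123, lost in 2 of 17). Of this list Fxyd4 had 0 counts throughout. The 9 acinar markers, mostly Mucl2 by CPM, summed to 457030 to 647130 CPM, 365330 to 532220 CPM and 310640 to 457900 CPM. Of 8 tested, 5 were lower at 60 than at 30 days (median log2 -0.15). At 90 days 7 were lower than at 30 days (median -0.49) and 8 lower than at 60 days (median -0.29). Of all genes, 49.6%, 52.1% and 50.1% had a change above 0 in these comparisons. Amy1 rose to 60 days (1.08, adjusted p = 0.000954) and to 90 days (0.94, adjusted p = 0.00153) in all 17 fits. At 90 against 30 days the water channel gene Aqp5 fell by 0.57 (adjusted p = 0.0113, lost in 3 of 17 fits). The muscarinic receptor gene Chrm3 fell by 0.53 between these days (adjusted p = 0.0148, lost in 4 of 17). Bhlha15, a transcription factor gene of secretory cells, fell by 0.78 from 60 to 90 days (adjusted p = 0.00581, lost in 3 of 17 fits). The intercalated duct list ran from 150 to 685, 467 to 1149 and 373 to 722 CPM. Its 4 tested genes were all higher at 60 than at 30 days (median log2 1.49), where 49.6% of all genes had a change above 0, and none passed. This list shares Smgc and Dcpp3 with the sublingual gland list. Smgc made up most of both sums, with 147.1 of 150.5 and of 147.5 CPM in 30-day sample 1. The sublingual gland list ran from 148 to 680.0 CPM at 30 days, 453 to 1141 CPM at 60 days and 358 to 712 CPM at 90 days, and none of its 3 tested genes passed. From 30 to 60 days they stood at -0.51 (the mucin gene Muc19, with 1 to 23 counts per library), 1.12 (Smgc) and 1.86 (Dcpp3). Markers of immune cells (29.4 to 63.6 CPM), endothelial cells (44.4 to 57.6 CPM), fibroblasts (305 to 518 CPM) and adipocytes (7.28 to 11.8 CPM) had no member called in any comparison, nor had those of myoepithelial cells. The myoepithelial markers summed to 268 to 379 CPM at 30 days and 403 to 444 CPM at 60 days, without overlap. At 90 days they summed to 373 to 514 CPM. All 5 were higher at 60 than at 30 days (median log2 0.33) and at 90 than at 30 days (median 0.38). Of all genes, 49.6% and 52.1% had a change above 0 in these comparisons. Basal cell markers summed to 61.1 to 79.8 CPM at 30 days, 72.4 to 77.2 CPM at 60 days and 81.6 to 125 CPM at 90 days, the last above all earlier samples. Of these Trp63, which codes for a basal cell transcription factor, rose by 0.92 from 30 to 90 days (adjusted p = 0.0289, lost in 5 of 17 fits). The part of any of these in the kallikrein changes was not tested.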

How the data were processed

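RNA sequencing was done on 4 sections of 50 µm per sample, with DNase treatment and a SMARTER library preparation, per the labels' protocols. The authors deposited raw read counts per Ensembl gene. fastp, STAR, featureCounts and the build mm10 are named in the submitters' processing notes. Their versions, the annotation, the use of strand and the handling of reads that fit several genes are not given in the sources used here.

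Columns were matched to the 9 samples by the day and number in their names, and 3 further columns that match no sample were not used. Positions and symbols come from GENCODE M21 (54409 of 54532 identifiers), promoter sequences from RefSeq. Genes were filtered with filterByExpr (minimum count 10, leaving 15224 of 27001 with counts), scaled with TMM and fitted by day in edgeR 4.0.16 (R 4.3.3). Every adjusted p-value is from its quasi-likelihood test with Benjamini-Hochberg adjustment over all 15224 genes, threshold 0.05, unless DESeq2 1.42.0 or limma-voom (limma 3.58.1) is named. The 3 days share an estimate of the spread (biological coefficient of variation 0.15). On simulated data with 200 of 15224 genes changed, for 60 against 30 days, the test recovered 63% of log2 changes of 1 and 90% of log2 changes of 2, and 9.47% of its calls were unchanged genes.

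The members and gene lists were chosen with earlier results of these data known. All members are named, with genes of other lists that passed in a pairwise comparison (up to 6 per list by smallest p), Egf and Ren1, and genes with the most similar profile. Some listed genes are not reported here. Markers and features named outside this rule, the ratios to Klk1 and their exact test were chosen after values were seen. The alternatives for single genes, 17 in all, were other scalings, tools and filters, the 6 samples of a comparison alone, a replicate block, and leaving out each sample in turn. Software for tables, sequences and figures was Python 3.11.15, pandas 2.3.3, biopython 1.88 and matplotlib 3.10.9.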

Additional observations from a re-analysis of the deposited data

How the results depend on the processing

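From 30 to 60 days 238 genes changed, 173 higher and 65 lower, against 90 (79 higher, 11 lower) with library-size scaling alone, 376 with DESeq2, 459 with no filter on low counts, and 73 to 249 when each sample was left out in turn. From 60 to 90 days 39 changed (14 higher, 25 lower), against 150 with DESeq2, 354 with no filter, 28 (19 higher, 9 lower) with library-size scaling and 16 to 101 without a sample. From 30 to 90 days 544 changed (275 higher, 269 lower), against 867 with DESeq2, 1045 with no filter, 440 (406 higher, 34 lower) with library-size scaling and 189 to 714 without a sample. For any difference among days the 501 genes became 277 with library-size scaling, 847 with DESeq2, 1194 with no filter and 225 to 681 without a sample. The members called from 30 to 60 days, 8, became 5 with library-size scaling and 3 to 9 without a sample, and those from 30 to 90 days and for any difference 7 to 9 without a sample. Library-size scaling moved the median log2 change of all genes to 0.05, 0.17 and 0.24 for 60 against 30, 90 against 60 and 90 against 30 days, and Klk1 to 0.24 for the last. The members' share of counts became 4.17%, 7.07% and 7.54% at 30, 60 and 90 days when Mucl2 was left out of the total. With all Klk1 and Klk1b genes of the table it was 4.90% at 60 days, of which Klk1 made up 44.5%. The cause of these changes was not tested.

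With the sample number as a replicate block the counts of genes were 270, 92, 717 and 609 for the comparisons in the same order, and the members called were 8, 0, 8 and 8 as before. Samples that share a number correlated between -0.06 and 0.19 in their deviations from the day's mean, 1 of 9 pairs above 0.1, and 4 of 9 samples correlated best with their own number, so the numbers were not taken as pairing.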

Other observations

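The 4 genes outside the kallikrein family whose course over the 9 libraries was most like the mean course of the 10 members were Gcgr, Capn3, Crisp3 and Egf, of 13004 genes with an average of at least 1 CPM. Likeness is the root mean square difference in log2 CPM after each gene's mean is taken off, a description with no test, and its median over these genes was 0.91. Gcgr, which codes for the glucagon receptor, was at a distance of 0.18, with 2.62, 3.80 and 3.61 CPM at 30 days, 10.9, 11.9 and 8.30 CPM at 60 days, and 10.3, 12.6 and 12 CPM at 90 days. Its samples of 30 days lay below all others. Capn3, the gene of the protease calpain 3, was at 0.19, Crisp3 at 0.20 and Egf at 0.22. With a prior count of 0.5 in place of 2, Gcgr, Capn3 and Crisp3 took the same places and Egf the fifth. Among the members Klk1b26 and Klk1b22 lay nearest to the mean course, both at 0.05, and Klk1b8 (0.45) and Klk1 (0.81) lay farthest from it.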
